A study of Mus musculus with 27 samples.

Results

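Retinoic acid pathway genes were followed in the fetal mouse brain by their read counts. The 9 genes are the retinol receptor gene Stra6, the synthesis genes Aldh1a1, Aldh1a2 and Aldh1a3, the reductase gene Dhrs3, the binding protein genes Crabp1 and Crabp2, the receptor gene Rarb and the clearance gene Cyp26b1. They were chosen by symbol, and each symbol matched 1 of the 55416 rows of the gene table. All 9 passed the filter on low counts in each of the 15 comparisons of days or strains. The RNA came from the whole brain of single fetuses, with poly-A selection, in 27 libraries: 3 strains, 3 days of gestation and 3 libraries in each of the 9 groups. The vaginal plug marked day 1, and fetuses were taken on days 12, 15 and 17 (d12, d15 and d17). The study calls d12 to d15 the early phase and d15 to d17 the late phase, and compares strains that differ in longevity.

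The 3 strains were C57BL/6J, an inbred strain described as long-lived, AKR/J, an inbred strain described as short-lived that carries an endogenous leukemia virus, and B6.Cg-Cav1tm1Mls/J, called Cav1-null, a short-lived congenic strain in which a null allele of Cav1 is carried on the C57BL/6J background. No group was treated, all fetuses were labelled female, and no Cav1-null group had wild-type littermates as its control. In the Cav1-null libraries Cav1 reached at most 0.509 CPM, the counts scaled to 1000000 reads on genes, whereas the other libraries held between 9.24 and 39.9 CPM. Depth was 26363697 to 39759702 reads on genes per library, with a median of 29700746. The labels do not say which fetuses shared a litter, so the p-values measure the spread between these libraries.

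Retinoic acid is made from vitamin A within the embryo and acts on nearby cells as a ligand of nuclear receptors. Retinol enters cells through Stra6, is oxidized to retinaldehyde, and is then oxidized irreversibly to retinoic acid by the Aldh1a enzymes. Dhrs3 returns retinaldehyde to retinol, the Crabp proteins carry retinoic acid inside the cell, Rarb is both a receptor and a direct target of the signal, and Cyp26 enzymes degrade it. In the developing brain the pathway is known for patterning the hindbrain and for later roles in the meninges, the striatum and the eye, where synthesis and clearance lie in separate places.

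By the GENCODE M39 annotation of GRCm39, the uptake and synthesis genes are Stra6 at chr9:57970967-58063543 (plus strand), Aldh1a1 at chr19:20469539-20622825 (plus strand), Aldh1a2 at chr9:71122630-71203527 (plus strand) and Aldh1a3 at chr7:66040638-66077850 (minus strand). The others are Dhrs3 at chr4:144619245-144654779 (plus strand), Crabp1 at chr9:54671171-54680403 (plus strand), Crabp2 at chr3:87855973-87860683 (plus strand), Rarb at chr14:5650540-6041094 (plus strand) and Cyp26b1 at chr6:84548396-84570890 (minus strand), and all 9 are protein-coding.

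The DNA in front of Aldh1a1, which rose in all 3 strains, and of Cyp26b1, whose level differed widely between d12 libraries, is shown to make these genes recognizable. Each line gives the 120 bases before the annotated start of the main transcript (GRCm39, GENCODE M39), written 5′ to 3′ on the gene's strand, with any TATAAA on either strand in capitals. The stretch of Aldh1a1 lies at chr19:20577055-20577174 on the plus strand and that of Cyp26b1 at chr6:84565966-84566085 on the minus strand.
Aldh1a1: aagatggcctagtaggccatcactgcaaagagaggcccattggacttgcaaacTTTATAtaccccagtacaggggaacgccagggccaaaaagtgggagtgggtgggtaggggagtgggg
Cyp26b1: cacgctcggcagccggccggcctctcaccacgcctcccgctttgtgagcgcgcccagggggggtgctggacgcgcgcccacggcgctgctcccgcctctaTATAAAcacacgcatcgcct
The match began 67 bases before the start of Aldh1a1, on the opposite strand, and 20 bases before that of Cyp26b1. Of 21757 promoters of protein-coding genes, 6.21% held TATAAA in this window on either strand.

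A retinoic acid response element is a direct repeat of a half-site. Repeats in which each half-site was AGGTCA or its variants AGTTCA and GGGTCA, or the variant with both changes, GGTTCA, in the same orientation on either strand and with 1, 2 or 5 bases between them, were searched from 250 bases before to 500 bases after each annotated start. Among the 9 genes, Rarb had such a repeat, with 5 bases between the half-sites, which are in capitals.
Rarb: GGTTCAccgaaAGTTCA
It lies at chr14:5894234-5894250 on the plus strand, the strand of the gene, 298 bases after the start of the main transcript and 29 bases before the next of 16 annotated starts. A repeat of the 5-base kind was in 0.138% of the 21757 promoters, and one of any of the 3 kinds in 0.892%. The match is a description of the letters, and binding was not measured here.

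Some libraries stood apart from the rest of their group. Neuronal markers (Tubb3, Map2, Stmn2, Snap25 and Dcx) summed to between 1651 and 6563 CPM in the 27 libraries, so neural tissue was present in each. The 3 AKR/J d12 libraries held 33008 to 197512 summed CPM of 9 erythroid genes, against 568 to 18609 CPM in the other 24 libraries, and their placental Prl8a2 and yolk sac Afp reached 586 and 1042 CPM in replicate 1. AKR/J d12 replicate 3 had 366 CPM of Cnpy1, a gene of the midbrain-hindbrain boundary. AKR/J d15 replicate 2 had 55.9 CPM of the lens gene Cryaa, against at most 0.165 CPM in any other library. Its sums of meninges and fibroblast, skeletal muscle and epidermis markers were 1080, 67.1 and 53.8 CPM. The other AKR/J d15 libraries held at most 122, 6.94 and 15.8 CPM of them. C57BL/6J d15 replicate 1 held 5111 and 55.1 CPM of the meninges and muscle sums, against at most 594 and 7.76 CPM in replicates 2 and 3. Cav1-null d12 replicate 2 had Y-linked genes at 62.9 to 140 CPM against its label. AKR/J d12 replicate 1 held 5.93 to 17.7 CPM of the same genes beside 2771 CPM of Xist, and AKR/J d15 replicate 3 held 3.29 CPM of Xist and none of them. AKR/J d12 replicate 3, AKR/J d15 replicate 2 and Cav1-null d12 replicate 2 were left out of an alternative fit, chosen after seeing the data.

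**Figure D1:**
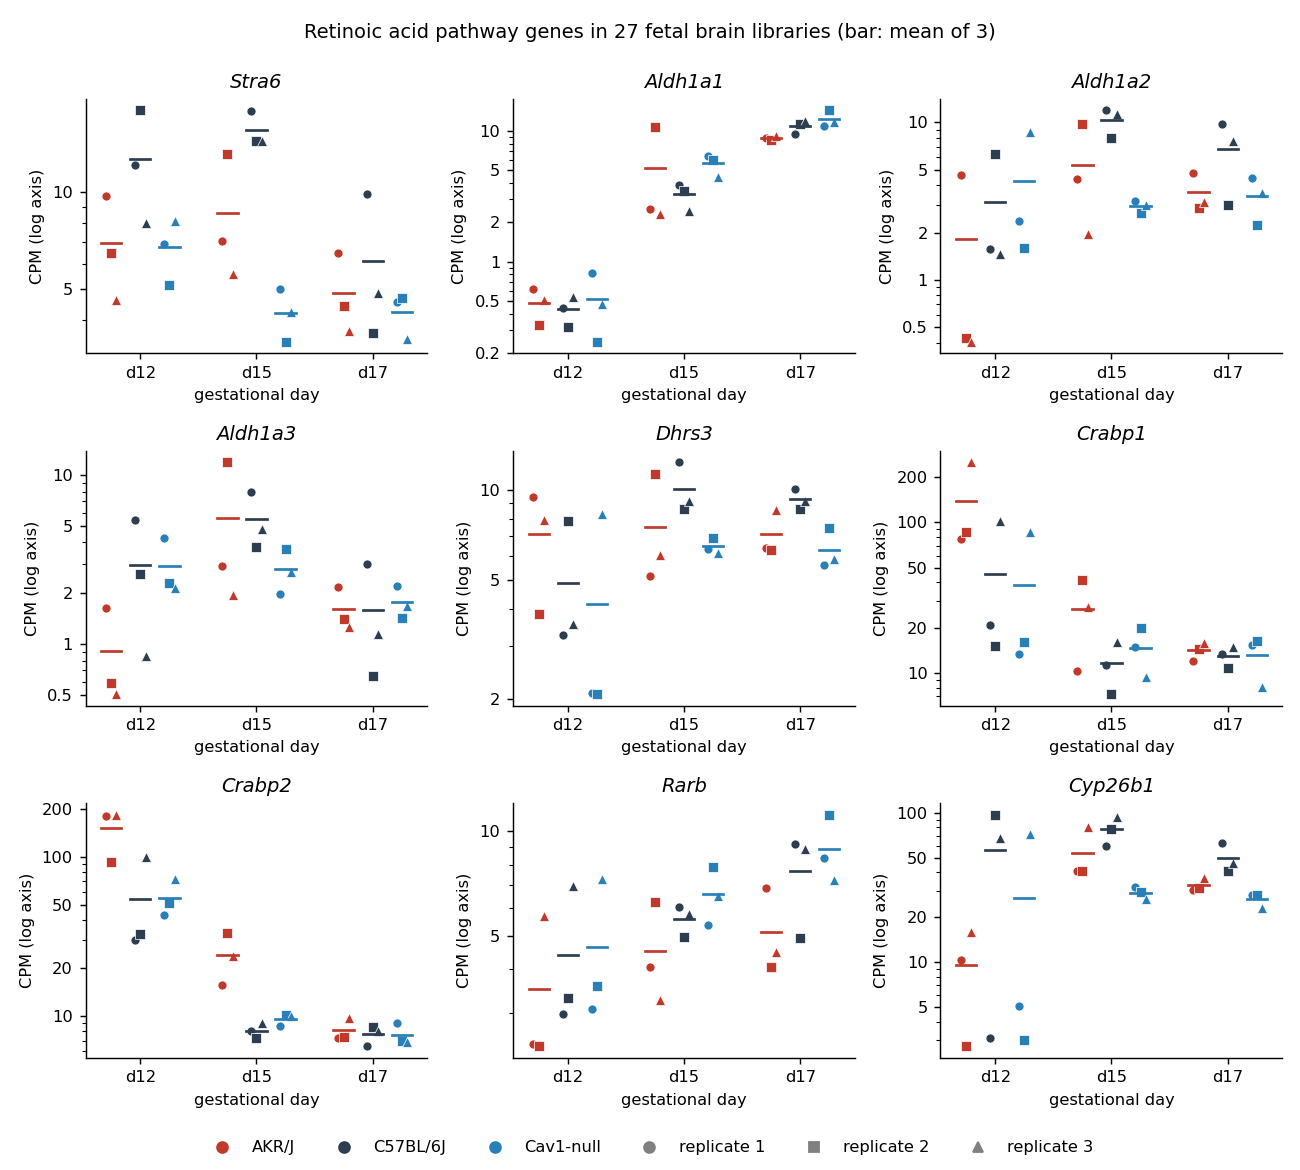
Level of each of the 9 genes in the 27 libraries, in CPM on a log axis, by gestational day. Each symbol is 1 library, colour marks the strain, shape the replicate, and the bar the mean of 3. Crabp2 lies between 30.1 and 183 CPM on d12 and between 6.46 and 9.78 CPM on d17, Aldh1a1 runs the other way, and Cyp26b1 on d12 falls into 6 libraries at 2.73 to 15.8 CPM and 3 at 67.7 to 97.0 CPM.

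Per kilobase of exon, counted over the joined exons of all annotated transcripts of a gene, the binding protein genes led. The median level over the 27 libraries was 11.7 CPM per kb for Crabp1, 7.54 for Crabp2 and 5.58 for Cyp26b1. Dhrs3 followed at 2.12 CPM per kb, Stra6, Aldh1a2 and Rarb lay at 0.767, 0.686 and 0.680, and Aldh1a3 and Aldh1a1 were lowest at 0.381 and 0.362. The order of the 3 Aldh1a genes turned on the exon length, which was 10740 bases for Aldh1a1, 4623 for Aldh1a2 and 5693 for Aldh1a3. By median CPM Aldh1a1 was the highest of them at 3.89, before Aldh1a2 at 3.17 and Aldh1a3 at 2.17. The range over libraries also differed between the genes. Aldh1a1 CPM spanned 59.0-fold from its lowest to its highest library, whereas Rarb spanned 4.64-fold. When the 9 groups were ordered by mean CPM, every one of the 8 neighbouring pairs overlapped for Aldh1a2, Aldh1a3, Rarb, Crabp1, Stra6 and Dhrs3. For Crabp2 and Cyp26b1, 6 of the 8 pairs overlapped, and for Aldh1a1 5 of 8.

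Crabp2, which carries retinoic acid to its nuclear receptors, was highest on d12 and fell in all 3 strains in the early phase. In AKR/J its level was 179, 91.8 and 183 CPM in replicates 1, 2 and 3 on d12, 15.6, 33.0 and 23.7 CPM on d15, and 7.23, 7.38 and 9.78 CPM on d17. The 3 days did not overlap in AKR/J. The log2 fold change was -2.70 (SE 0.35, adjusted p = 0.0021 by the quasi-likelihood test of edgeR, with p-values adjusted by Benjamini-Hochberg over all genes tested) from d12 to d15 and -1.55 (SE 0.27, adjusted p = 0.0058) from d15 to d17. In C57BL/6J the levels were 30.1, 32.7 and 99.1 CPM on d12, 8.00, 7.23 and 8.99 CPM on d15, and 6.46, 8.48 and 8.06 CPM on d17. Its d15 and d17 values overlapped, and all of them lay below the d12 values. The early log2 fold change was -2.80 (SE 0.49, adjusted p = 0.0217), and the late one -0.01 (SE 0.18, adjusted p = 0.966). Cav1-null brains held 43.0, 51.2 and 71.8 CPM on d12, 8.72, 10.1 and 9.96 CPM on d15, and 9.06, 6.95 and 6.84 CPM on d17. Here the early log2 fold change was -2.53 (SE 0.20, adjusted p = 0.000168) and the late one -0.33 (SE 0.15, adjusted p = 0.113). The C57BL/6J call was lost without any one of the 3 d15 libraries (log2 fold change -3.09 to -1.99 over the 6 fits that leave out 1 library), where 6, 0 and 2 genes in the whole table were called instead of 2850 of 19154, whereas the AKR/J and Cav1-null calls of the early phase were kept in every such fit. Cell type markers moved over the same step. Over the 27 libraries Crabp2 had an r of -0.86 with the neuron sum, 0.79 with the radial glia sum and 0.69 with the erythroid sum. Without the 3 AKR/J d12 libraries these were -0.78, 0.59 and 0.29, so that the r with the erythroid sum fell most. In the same 24 libraries Hbb-bh1, an embryonic globin gene within this sum, had an r of 0.956 with Crabp2. In AKR/J the erythroid sum was 33008 to 197512 CPM on d12, 2005 to 3063 CPM on d15 and 3458 to 18609 CPM on d17. The neuron sum was 1651 to 2118 CPM on d12, 3584 to 5217 CPM on d15 and 5145 to 5303 CPM on d17. From d15 to d17 the choroid plexus sum went from 333 to 456 CPM up to 522 to 563 CPM. That of dopamine neurons went from 97.9 to 147 CPM down to 80.5 to 86.3 CPM. Their part in the fall of Crabp2 was not tested.

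Crabp1, the related protein thought to hold and turn over retinoic acid in the cytoplasm, was more uneven on d12. AKR/J held 77.7, 86.0 and 250 CPM on d12, 10.3, 41.8 and 27.5 CPM on d15, and 12.1, 14.4 and 15.9 CPM on d17. The d12 values lay above all others of the strain, and Crabp1 fell early by 2.43 on the log2 scale (SE 0.59, adjusted p = 0.018). This call was lost without AKR/J d12 replicate 3 or d15 replicate 3, with log2 fold changes of -2.90 to -1.67 over the 6 fits. On d12, C57BL/6J held 20.8, 15.1 and 101 CPM and Cav1-null 13.3, 16.1 and 86.1 CPM. In each of these strains replicate 3 was far above the other two, which lay close to the 7.26 to 19.9 CPM of their d15 libraries. The summed CPM of 10 markers of decidua and trophoblast was 23.6, 37.3 and 98.9 in C57BL/6J d12 replicates 1, 2 and 3 and 32.7, 28.4 and 86.6 in those of Cav1-null. That of meninges and fibroblasts was 287, 832 and 923 CPM and 172, 138 and 972 CPM. Replicate 3 was thus also the highest of its group in both sums in these strains. In AKR/J d12, replicate 3 held the most Crabp1 but the lowest decidua and trophoblast sum, 65.2 CPM against 847 and 90.6. Its meninges sum was 1061 CPM, against 1168 and 485 in replicates 1 and 2. The midbrain-hindbrain sum defined below was highest in replicate 3 of each strain, at 485, 424 and 218 CPM in AKR/J, C57BL/6J and Cav1-null. The part of these tissues in the Crabp1 level was not tested. The early log2 fold change was -2.05 (SE 0.74, adjusted p = 0.0948) in C57BL/6J and -1.40 (SE 0.66, adjusted p = 0.161) in Cav1-null. Over the 27 libraries log2(CPM + 1) of Crabp1 and Crabp2 had a Pearson r of 0.86, the highest of the 36 pairs of these genes. The libraries share their day and depth differences, and r is given as a description.

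Aldh1a1, a retinaldehyde dehydrogenase known from the dopamine neurons of the midbrain and from the eye, was the one synthesis gene that rose in all 3 strains. On d12 it was near the floor of these data, with 0.618, 0.329 and 0.508 CPM in AKR/J, 0.442, 0.315 and 0.540 CPM in C57BL/6J and 0.827, 0.245 and 0.476 CPM in Cav1-null. The lowest of these values rests on 8 reads. On d15 the levels were 2.51, 10.8 and 2.30 CPM in AKR/J, 3.89, 3.48 and 2.45 CPM in C57BL/6J, and 6.45, 6.04 and 4.47 CPM in Cav1-null. No d15 library overlapped a d12 library. The summed CPM of 12 markers of retina, pigment epithelium and lens was 9.74 to 25.4 on d12 and 38.8 to 117 on d15 in AKR/J, and 12.4 to 37.9 and 58.6 to 59.8 in C57BL/6J. In Cav1-null it was 26.6 to 39.996 and 38.3 to 44.2, and the days overlapped. The sum of 8 markers of dopamine neurons was 69.3 to 192 CPM on d12, 91.0 to 147 CPM on d15 and 80.5 to 128 CPM on d17. Its r with Aldh1a1 was -0.59, and -0.81 without the AKR/J d12 libraries. With the radial glia sum these were -0.69 and -0.74. That sum was 1988.5 to 4139 CPM on d12 and 1177 to 1530 CPM on d15 in AKR/J. It was 1701 to 2173 and 1439 to 1532 CPM in C57BL/6J, and 1424 to 1799 and 1258 to 1361 CPM in Cav1-null. The part of these cells and tissues in the rise of Aldh1a1 was not tested. The early log2 fold change was 3.37 (SE 0.71, adjusted p = 0.0103) in AKR/J, 2.86 (SE 0.34, adjusted p = 0.016) in C57BL/6J and 3.46 (SE 0.41, adjusted p = 0.000901) in Cav1-null. The AKR/J value was 2.31 (adjusted p = 0.0517) without d12 replicate 3 and d15 replicate 2, and the C57BL/6J call was lost without any one of the d15 libraries, at log2 fold changes of 2.65 to 3.06, in the same 3 fits that called 6, 0 and 2 genes in the whole table.

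On d17 Aldh1a1 reached 8.82, 8.53 and 9.18 CPM in AKR/J, 9.47, 11.3 and 12.0 CPM in C57BL/6J, and 10.9, 14.4 and 11.6 CPM in Cav1-null. In C57BL/6J and Cav1-null every d17 library lay above every d15 library, whereas in AKR/J the d15 replicate 2 with lens RNA lay above the d17 libraries. The late log2 fold change was 1.80 (SE 0.23, adjusted p = 0.0065) in C57BL/6J, 1.13 (SE 0.16, adjusted p = 0.000237) in Cav1-null and 0.77 (SE 0.54, adjusted p = 0.345) in AKR/J. Without AKR/J d15 replicate 2 the late change of AKR/J was 1.90 (adjusted p = 0.000556). The C57BL/6J call was lost without d17 replicate 3 (range over the 6 fits 1.63 to 1.94), and the Cav1-null call in the model of all 27 libraries. Among the marker sums that did not overlap over this step was that of radial glia in C57BL/6J, at 1439 to 1532 CPM on d15 and 1032 to 1397 CPM on d17. Another was the neuron sum in Cav1-null, at 4865 to 5059 and 5327 to 5502 CPM. Their part in the late rise was not tested.

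Aldh1a2, the main retinoic acid synthesis enzyme of the early embryo and later of the meninges, was not called between days by edgeR in any strain. C57BL/6J held 1.58, 6.31 and 1.46 CPM on d12, 11.9, 7.91 and 11.3 CPM on d15, and 9.80, 2.99 and 7.59 CPM on d17. Cav1-null held 2.38, 1.59 and 8.68 CPM on d12, 3.17, 2.65 and 2.98 CPM on d15, and 4.45, 2.24 and 3.56 CPM on d17. The d15 libraries of C57BL/6J lay above its d12 libraries, with a log2 fold change of 1.72 (SE 0.55, adjusted p = 0.0709), and DESeq2 called this rise (adjusted p = 0.00498), as edgeR did without C57BL/6J d12 replicate 2 (2.70, adjusted p = 0.00617). In AKR/J the levels were 4.62, 0.428 and 0.406 CPM on d12, 4.40, 9.78 and 1.95 CPM on d15 and 4.80, 2.86 and 3.14 CPM on d17, and the days overlapped. Without AKR/J d12 replicate 1, the library with 4.62 CPM, the early rise of AKR/J was called at 3.63 (adjusted p = 0.0202).

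Aldh1a3, the isoform known from the ventral retina and the striatum, rose in AKR/J in the early phase, from 1.65, 0.592 and 0.508 CPM to 2.89, 11.9 and 1.95 CPM. The log2 fold change was 2.55 (SE 0.78, adjusted p = 0.0415). The highest d15 value came from replicate 2, the library with Cryaa, and without AKR/J d12 replicate 3 and d15 replicate 2 the log2 fold change was 1.08 (adjusted p = 0.295). Of the 6 fits that leave out 1 library, 4 lost the call, at log2 fold changes of 1.37 to 3.28 over all 6. The summed CPM of 12 markers of retina, pigment epithelium and lens was 117 in AKR/J d15 replicate 2 and 45.4 and 38.8 in the other two d15 libraries, and 3 of the 7 markers tested rose early in AKR/J. Replicate 2 was also the AKR/J d15 library with the most of the meninges, skeletal muscle and epidermis markers. The part of eye or other tissue in the Aldh1a3 rise was not tested beyond the fit without this library. C57BL/6J held 5.40, 2.59 and 0.857 CPM on d12, 7.92, 3.78 and 4.78 CPM on d15 and 2.98, 0.647 and 1.15 CPM on d17. Its early log2 fold change was 0.85 (SE 0.61, adjusted p = 0.346) and its late one -1.72 (SE 0.56, adjusted p = 0.0802). AKR/J held 2.17, 1.41 and 1.27 CPM on d17, and its late log2 fold change was -1.78 (SE 0.65, adjusted p = 0.0839). In Cav1-null the levels were 4.24, 2.29 and 2.14 CPM on d12, 1.99, 3.65 and 2.68 CPM on d15 and 2.21, 1.42 and 1.69 CPM on d17. The log2 fold changes there were -0.05 (SE 0.35, adjusted p = 0.928) early and -0.64 (SE 0.28, adjusted p = 0.112) late, so that only the early change of AKR/J passed the test among the early and late changes of Aldh1a3.

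**Figure D2:**
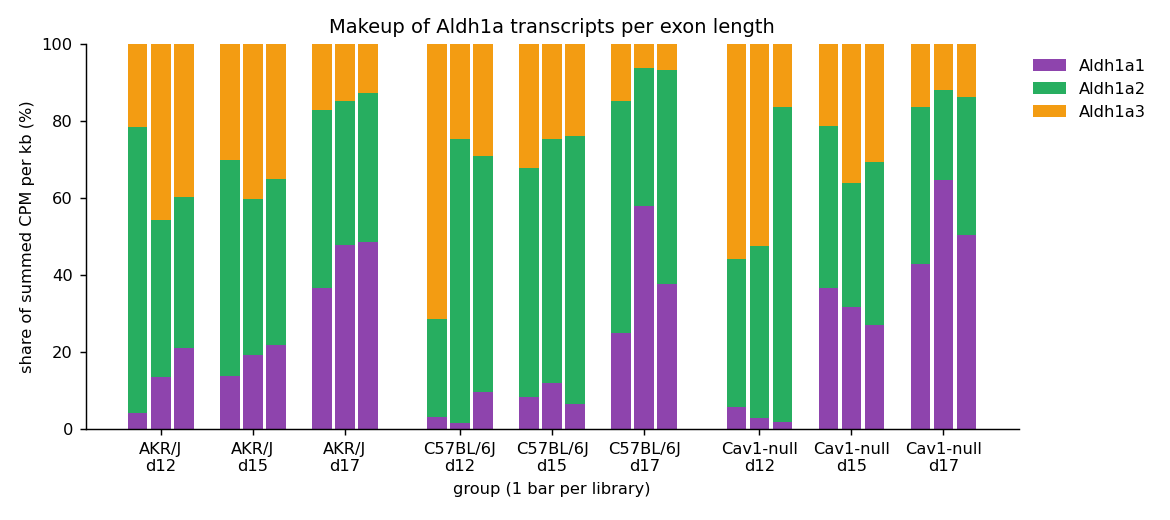
Share of each Aldh1a gene in the summed CPM per kb of the 3 Aldh1a genes, in percent, with 1 bar per library. Aldh1a1 makes up 1.59% to 21.1% of the sum in the 9 d12 libraries and 25.0% to 64.7% in the 9 d17 libraries, and Aldh1a3 is smallest on d17, at 6.28% to 17.0%.

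The makeup of the Aldh1a transcripts differed between days, in shares whose size depends on the exon lengths used. Per kb of exon, Aldh1a1 made up 12.9% ± 8.41 (SD, n = 3) of the Aldh1a sum in AKR/J on d12, 18.3% ± 4.12 on d15 and 44.4% ± 6.72 on d17. In C57BL/6J its share was 4.80% ± 4.33, 8.95% ± 2.81 and 40.2% ± 16.6 on the 3 days. In Cav1-null it was 3.55% ± 1.98, 31.9% ± 4.76 and 52.7% ± 11.1. The d17 libraries of each strain lay above its d12 libraries. Aldh1a2 was the largest part of the sum in C57BL/6J d15, at 59.6% to 69.7%, while the 3 Cav1-null d15 libraries held 32.3% to 42.1%. The sum itself was 3.52 ± 0.82 CPM per kb in C57BL/6J and 1.65 ± 0.12 in Cav1-null on d15, and 2.77 ± 0.87 and 2.20 ± 0.15 on d17.

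Stra6, the membrane receptor that takes up retinol from its carrier in plasma, was not called between days by edgeR. C57BL/6J held 12.2, 18.1 and 8.00 CPM on d12, 18.0, 14.4 and 14.5 CPM on d15, and 9.87, 3.64 and 4.87 CPM on d17. All 3 of its d17 values lay below its d15 values, with a late log2 fold change of -1.29 (SE 0.36, adjusted p = 0.056), and DESeq2 called this fall (adjusted p = 0.00377), as did edgeR without C57BL/6J d17 replicate 1 (-1.82, adjusted p = 0.0026). AKR/J held 9.77, 6.48 and 4.62 CPM on d12, 7.04, 13.2 and 5.56 CPM on d15 and 6.48, 4.41 and 3.71 CPM on d17. Cav1-null held 6.89, 5.14 and 8.17 CPM, then 4.99, 3.42 and 4.24 CPM, then 4.55, 4.68 and 3.50 CPM. Its d15 libraries lay below its d12 libraries, with a log2 fold change of -0.68 (SE 0.25, adjusted p = 0.0802), which DESeq2 called (adjusted p = 0.04). Stra6 overlaps Islr and Ccdc33 on the opposite strand, and the sources used here do not say whether reads were counted by strand, so part of its count is uncertain. The span of Islr begins at base 58063528, close to the end of Stra6 at 58063543, and Ccdc33 holds 556 reads over the 27 libraries.

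Dhrs3, whose product turns retinaldehyde back into retinol and which is itself induced by retinoic acid, lay between 2.08 and 12.3 CPM over all libraries. On d12 it was 9.48, 3.85 and 7.92 CPM in AKR/J, 3.28, 7.85 and 3.56 CPM in C57BL/6J, and 2.10, 2.08 and 8.28 CPM in Cav1-null. From d15 on the values were closer together, at 5.15 to 12.3 CPM on d15 and 5.62 to 10.04 CPM on d17. The largest log2 fold change between days was 1.00 (SE 0.34, adjusted p = 0.0847), early in C57BL/6J, and edgeR called the gene in no comparison of days. DESeq2 called this rise (adjusted p = 0.0177), and edgeR called it without C57BL/6J d12 replicate 2 (1.48, adjusted p = 0.0104) and called an early rise in Cav1-null without d12 replicate 3 (1.63, adjusted p = 1.3e-05).

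Cyp26b1, which degrades retinoic acid, differed widely between the d12 libraries of a strain, as Crabp1 did. C57BL/6J held 3.13, 97.0 and 67.7 CPM on d12 and Cav1-null held 5.06, 3.03 and 72.1 CPM, so that 2 libraries of the first group and 1 of the second lay far above the rest. AKR/J held 10.3, 2.73 and 15.8 CPM. On d15 the levels were 40.5, 40.5 and 79.9 CPM in AKR/J, 60.3, 77.5 and 94.2 CPM in C57BL/6J and 31.8, 29.4 and 26.5 CPM in Cav1-null. On d17 they were 30.3, 31.3 and 36.4 CPM, 63.1, 40.8 and 46.0 CPM, and 28.2, 28.0 and 23.0 CPM. The gene rose early in AKR/J, where no d15 library overlapped d12, with a log2 fold change of 2.44 (SE 0.57, adjusted p = 0.0153), and this call was lost without AKR/J d15 replicate 3, with log2 fold changes of 1.96 to 3.01 over the 6 fits. In C57BL/6J and Cav1-null the d12 spread took in the d15 values, and the early log2 fold changes were 0.44 (SE 0.88, adjusted p = 0.756) and 0.10 (SE 0.94, adjusted p = 0.949).

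In C57BL/6J and Cav1-null, the d12 libraries with much Cyp26b1 were those rich in genes of the midbrain-hindbrain boundary. This list (En1, En2, Pax2, Pax5 and Cnpy1) was made after seeing the data. Its summed CPM was 307 and 424 in C57BL/6J d12 replicates 2 and 3 and 13.6 in replicate 1, and 218 in Cav1-null d12 replicate 3 against 51.8 and 42.9 in replicates 1 and 2. AKR/J d12 departed from this. Its replicates 1, 2 and 3 had sums of 22.3, 94.4 and 485, the last being the highest of all libraries. They held 10.3, 2.73 and 15.8 CPM of Cyp26b1. Pax2, En1 and Skor1 were the 3 genes whose log2(CPM + 1) was most like that of Cyp26b1 over the 27 libraries, among 16441 genes with a mean of at least 1 CPM, at Pearson r of 0.864, 0.852 and 0.824. Without the 3 AKR/J d12 libraries En1 came first, with r of 0.884. In whole-brain RNA, fewer cells of a type and less RNA per cell cannot be told apart, and how much of each brain region entered a library was not measured.

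**Figure D3:**
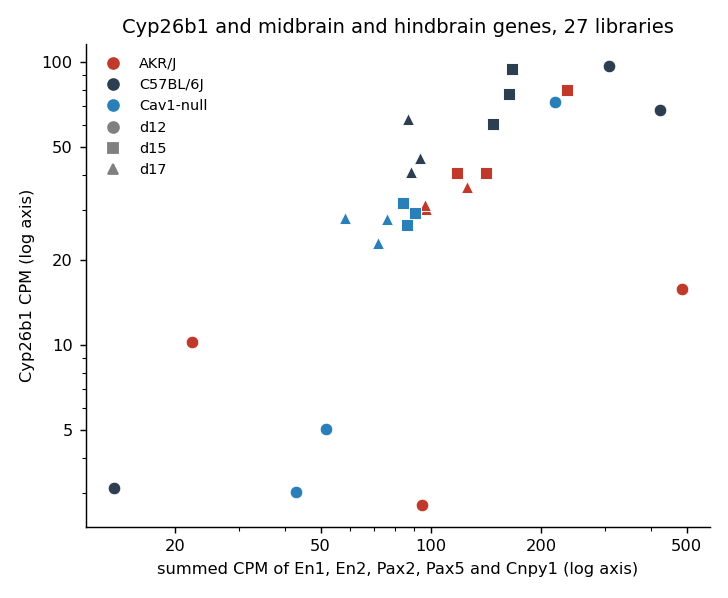
Cyp26b1 CPM against the summed CPM of En1, En2, Pax2, Pax5 and Cnpy1 in the 27 libraries, both on log axes, with strain by colour and day by shape. The d12 libraries spread from 2.73 to 97.0 CPM of Cyp26b1, and AKR/J d12 replicate 3 lies at the far right with 15.8 CPM.

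Rarb, the receptor gene that carries the response element printed above, was not called between days by edgeR or DESeq2 in any strain. Its level was 2.43, 2.40 and 5.69 CPM in AKR/J on d12, 4.05, 6.26 and 3.26 CPM on d15, and 6.84, 4.05 and 4.47 CPM on d17. C57BL/6J held 2.97, 3.31 and 6.95 CPM, then 6.05, 4.96 and 5.78 CPM, then 9.21, 4.93 and 8.89 CPM. Cav1-null held 3.07, 3.58 and 7.27 CPM, then 5.37, 7.91 and 6.51 CPM, then 8.36, 11.1 and 7.22 CPM. Replicate 3 was the highest of the 3 d12 libraries in each strain, and the days overlapped in each. Without that library edgeR called an early rise in C57BL/6J (0.80, adjusted p = 0.0405) and in Cav1-null (1.00, adjusted p = 0.0017), and without C57BL/6J d17 replicate 2 a late rise in C57BL/6J (0.77, adjusted p = 0.0338). The 6 log2 fold changes between days ran from 0.19 (SE 0.31, adjusted p = 0.702), late in AKR/J, to 0.52 (SE 0.27, adjusted p = 0.223), late in C57BL/6J. Rarb overlaps Top2b on the opposite strand, which holds 487983 reads over the 27 libraries, so that misassigned reads would weigh on Rarb. Kcnab1, C1qtnf2 and Penk, the gene of an opioid peptide of striatal neurons, were nearest to Rarb in pattern, at r of 0.808, 0.804 and 0.794.

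**Figure D4:**
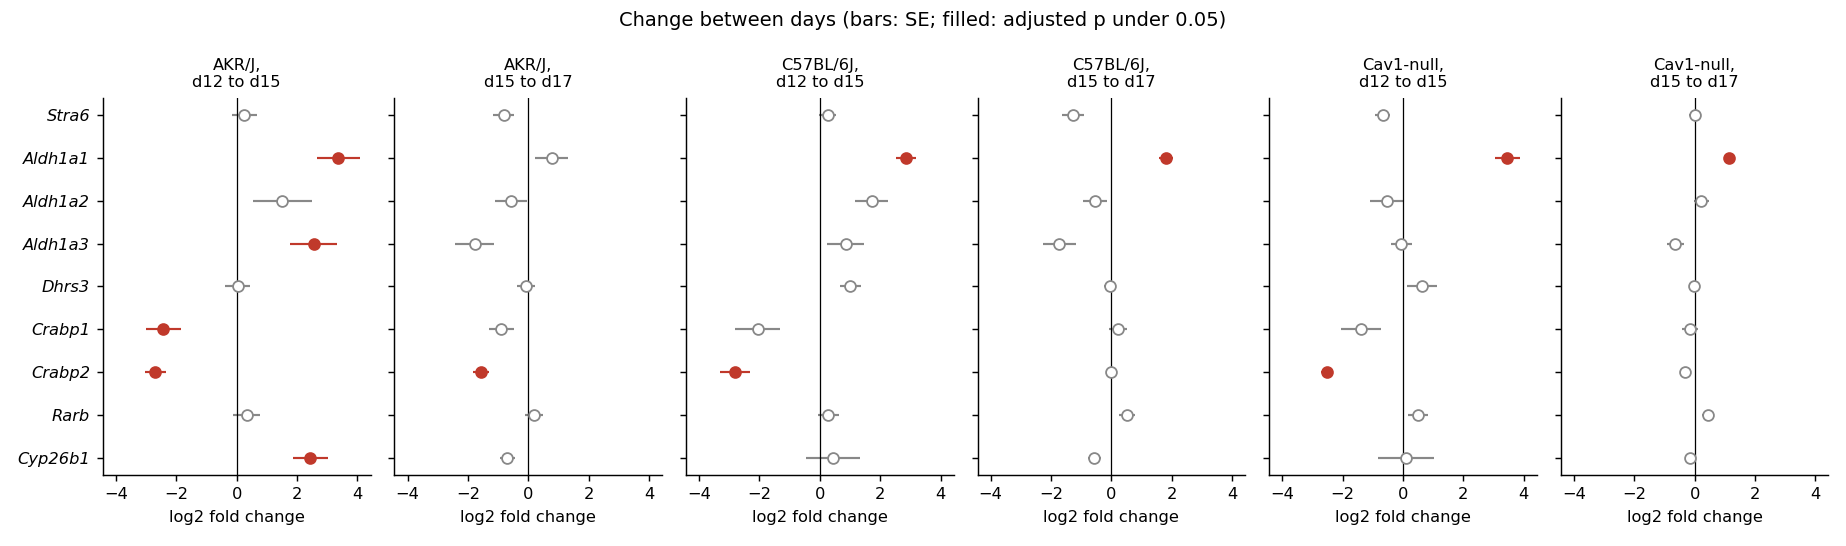
Log2 fold change of each gene between days, with SE, for the 3 strains in the early and late phase. Filled points have an adjusted p under 0.05. Crabp2 lies between -2.80 and -2.53 and Aldh1a1 between 2.86 and 3.46 in the early phase of the 3 strains, and in the late phase Crabp2 is filled in AKR/J and Aldh1a1 in C57BL/6J and Cav1-null.

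Counted together, the early phase called 5 of the 9 genes in AKR/J, where 28.9% of all genes tested were called, 2 of 9 in C57BL/6J, where 14.9% were called, and 2 of 9 in Cav1-null, where 23.4% were called. Crabp2 and Aldh1a1 were among them in each strain. Without the libraries that stood apart, the count in AKR/J was 3 early, where 2284 of 20330 genes were called, and 3 late, where 4802 of 20569 were called. The late phase called 1 of 9 in each strain, against 22.1% of all genes in AKR/J, 13% of those in C57BL/6J and 27.3% of those in Cav1-null. That gene was Crabp2 in AKR/J and Aldh1a1 in the other two strains. The early and late comparison of a strain share its d15 libraries. The difference between strains in these changes was put to an interaction test on 12 libraries each time, in which edgeR called none of the 9 genes in any of the 6 tests, in which 0.0711% (AKR/J and C57BL/6J), 0.00472% (Cav1-null and C57BL/6J) and 14.7% (AKR/J and Cav1-null) of all genes were called early and 0.00468%, 0.252% and 2.13% late. At an unadjusted p under 0.05 these tests held 0 to 2 of the 9 genes, and DESeq2 called 0 or 1. The smallest adjusted p was 0.0573, for the late change of Crabp2 between AKR/J and Cav1-null, so that by edgeR the late fall of Crabp2 in AKR/J was not shown to differ between strains, whereas DESeq2 called this difference against each of the other strains.

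Between strains on 1 day, Crabp2 was called higher in AKR/J on d12 and d15. Several of the genes were called lower in Cav1-null than in C57BL/6J on d15, where 58.6% of all genes were called. On d12 and d15, AKR/J against C57BL/6J called 1 of 9, against 28.6% and 41.1% of all genes, and it was Crabp2 on both days. The log2 difference was 1.62 (SE 0.48, adjusted p = 0.0377) on d12 and 1.65 (SE 0.27, adjusted p = 0.0026) on d15. On d15 the 15.6 to 33.0 CPM of AKR/J lay above the 7.23 to 8.99 CPM of C57BL/6J and the 8.72 to 10.1 CPM of Cav1-null. The d12 call was lost in 4 of the 6 fits without 1 library (log2 difference 1.32 to 2.39), those without AKR/J replicate 1 or 3 or C57BL/6J replicate 1 or 2, and on that day the libraries of these strains overlapped. It moved with the erythroid RNA of the AKR/J d12 libraries, of which 8 of the 9 genes were higher than in C57BL/6J on d12, and with the neuron sum, which was 1651 to 2118 CPM in these libraries against 3153 to 5249 CPM in C57BL/6J, and the sums of striatal neurons (217 to 225 and 314 to 471 CPM) and dopamine neurons (69.3 to 120 and 144 to 192 CPM). None of these 4 sums overlapped on d12, and their part in the difference was not tested. On d15, where the AKR/J libraries held 2005 to 3063 summed CPM of these genes and those of C57BL/6J 820 to 1063, the Crabp2 call was kept without each library. AKR/J had a neuron sum of 3584 to 5217 CPM on d15, below the 5796 to 6563 CPM of C57BL/6J, and a striatal neuron sum of 353 to 463 CPM, below 518 to 585 CPM. Neither overlapped, and their part in the d15 difference was not tested. AKR/J against Cav1-null called Crabp2 as well, at 1.49 (SE 0.30, adjusted p = 0.0126) on d12, where 1 of 9 and 19.6% of all genes were called, and at 1.32 (SE 0.25, adjusted p = 0.0086) on d15, where 2 of 9 and 19.3% were called. The d12 call was lost without Cav1-null replicate 1 or 2, at log2 differences of 1.33 to 1.76 over the 6 fits. The other gene called on d15 was Cyp26b1, higher in AKR/J by 0.85 (SE 0.24, adjusted p = 0.0382), and its call was lost without any one of the Cav1-null d15 libraries (0.47 to 1.02 over the 6 fits). The midbrain-hindbrain sum did not overlap here either, with 118 to 236 CPM for AKR/J and 83.9 to 90.7 CPM for Cav1-null, and its part in this difference was not tested. The strain comparisons of a day share libraries and are not independent.

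On d15, 6 of the 9 genes differed between Cav1-null and C57BL/6J, where 58.6% of all genes were called, so that this share is near the background. Stra6 was lower in Cav1-null by a log2 difference of -1.85 (SE 0.18, adjusted p = 7.55e-06), with 3.42 to 4.99 CPM against 14.4 to 18.0 CPM. For Aldh1a2 the log2 difference was -1.78 (SE 0.20, adjusted p = 2.49e-05) and for Cyp26b1 -1.36 (SE 0.14, adjusted p = 1.3e-05), and neither overlapped C57BL/6J. Aldh1a3 (-0.95, SE 0.31, adjusted p = 0.0233) and Dhrs3 (-0.60, SE 0.17, adjusted p = 0.0118) were lower too, and neither overlapped, the Aldh1a3 call being lost without C57BL/6J replicate 1 or Cav1-null replicate 1 or 3 (log2 difference -1.18 to -0.58 over the 6 fits). Aldh1a1 was higher in Cav1-null, by 0.83 (SE 0.23, adjusted p = 0.0102), with 4.47 to 6.45 CPM against 2.45 to 3.89 CPM. In the model of all 27 libraries, which shares 1 estimate of spread and called 8185 of 23307 genes, Stra6 was the one gene of the 9 still called.

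Several marker lists differed between the same libraries on d15. The summed CPM of 8 markers of meninges and fibroblasts was 5111, 356 and 594 in C57BL/6J replicates 1, 2 and 3 and 72.3, 153 and 103 in Cav1-null, with 6 of the 8 lower in Cav1-null. The midbrain-hindbrain sum was 148 to 167 CPM in C57BL/6J and 83.9 to 90.7 in Cav1-null. The retina, pigment epithelium and lens sum was 58.6 to 59.8 against 38.3 to 44.2 CPM, and that of dopamine neurons 140 to 143 against 91.0 to 100 CPM. The neuron sum was 5796 to 6563 against 4865 to 5059 CPM, that of striatal neurons 518 to 585 against 415 to 428 CPM, and that of radial glia 1439 to 1532 against 1258 to 1361 CPM. The erythroid sum went the other way, at 820 to 1063 CPM in C57BL/6J and 2906 to 3612 CPM in Cav1-null. The libraries of these strains overlapped in none of these sums. Over the 27 libraries, and over the 24 without AKR/J d12, the r with the meninges sum was 0.75 and 0.83 for Stra6, 0.36 and 0.64 for Aldh1a2, 0.34 and 0.58 for Aldh1a3, 0.35 and 0.35 for Dhrs3, and 0.17 and 0.37 for Cyp26b1. With the retina sum it was 0.76 and 0.63 for Aldh1a2 and 0.75 and 0.69 for Aldh1a3, and with the midbrain-hindbrain sum 0.66 and 0.85 for Cyp26b1. That list was made after seeing the data and holds Pax2 and En1, which were among the genes nearest to Cyp26b1. Its r with Cyp26b1 is therefore not independent of the choice of list. The part of tissue makeup in these differences was not tested.

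On d17 neither short-lived strain differed from C57BL/6J in any of the 9 genes by edgeR, and this rested on C57BL/6J replicate 2. Between AKR/J and C57BL/6J there were 0.742% of all genes called, 1 of the 9 at an unadjusted p under 0.05 (Cyp26b1) and none called by DESeq2. Without C57BL/6J d17 replicate 2, edgeR called 5478 of 20740 genes instead of 150 of 20207, and among them Aldh1a2 (log2 difference -1.27, adjusted p = 0.011), Cyp26b1 (-0.74, adjusted p = 0.0122) and Rarb (-0.82, adjusted p = 0.038), all lower in AKR/J. Between Cav1-null and C57BL/6J there were 0.0491% of all genes called, 3 of the 9 at an unadjusted p under 0.05 (Aldh1a2, Cyp26b1 and Dhrs3) and Cyp26b1 called by DESeq2. Here edgeR called 2865 of 20991 genes without C57BL/6J d17 replicate 2, and among them Aldh1a2 (-1.36, adjusted p = 0.0247) and Cyp26b1 (-1.06, adjusted p = 0.0243). The Cyp26b1 libraries of these strains did not overlap on d17, at 23.0 to 28.2 CPM in Cav1-null and 40.8 to 63.1 CPM in C57BL/6J, and the log2 difference was -0.92 (SE 0.19, adjusted p = 0.575). On d12 Cav1-null and C57BL/6J differed in none either, with 0% of all genes called, 1 of the 9 at an unadjusted p under 0.05 (Stra6) and none by DESeq2, and without C57BL/6J d12 replicate 3 Stra6 was called (-1.13, adjusted p = 0.0427). AKR/J against Cav1-null called 2 of 9 on d17, against 12.4% of all genes. Rarb was lower in AKR/J (log2 difference -0.80, SE 0.22, adjusted p = 0.0344) and so was Aldh1a1 (-0.49, SE 0.14, adjusted p = 0.0392), and these calls were lost in 3 and 5 of the 6 fits that leave out 1 library, at log2 differences of -1.07 to -0.61 and -0.57 to -0.36. Marker sums separated these libraries too. AKR/J held more of the choroid plexus markers (522 to 563 CPM, against 329 to 385), the erythroid genes (3458 to 18609 CPM, against 568 to 2577) and the midbrain-hindbrain genes (96.4 to 126 CPM, against 58.5 to 76.0), and less of the neuron markers (5145 to 5303 CPM, against 5327 to 5502). Their part in these differences was not tested.

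**Figure D5:**
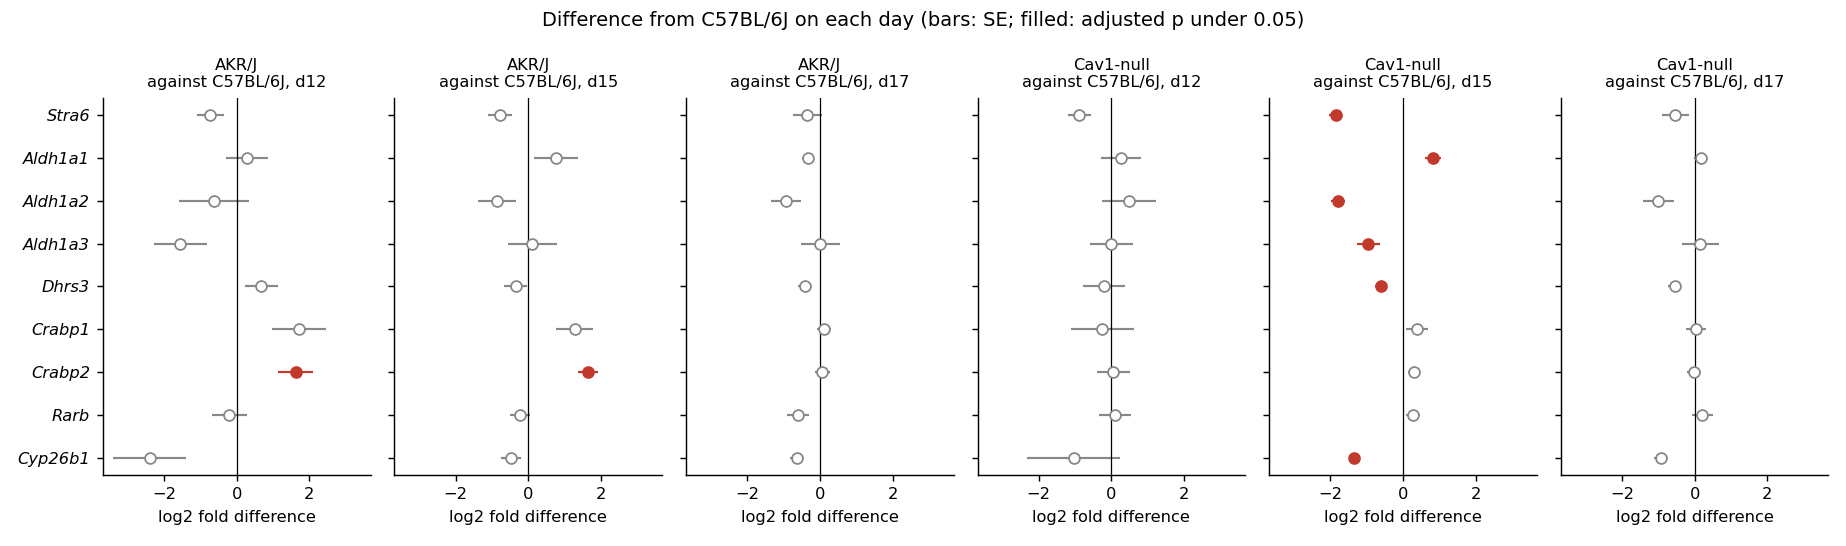
Log2 difference of AKR/J and of Cav1-null from C57BL/6J on each day for the 9 genes, with SE. Filled points have an adjusted p under 0.05. Crabp2 stands at 1.62 and 1.65 in AKR/J on d12 and d15, and in Cav1-null 6 of the 9 points are filled on d15 and none on d12 or d17.

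The genes nearest to the other members in pattern were of mixed kinds. Crabp2 went with Dera, Tpm4 and Akr1b8 at r of 0.971, 0.966 and 0.963, and without the AKR/J d12 libraries Akr1b8 led, followed by the embryonic globin gene Hbb-bh1 at 0.956. Aldh1a1 went with Panct2 (0.963), Clca3a1 (0.948) and Mal2 (0.946). Stra6 went with Lrp5, Notch2 and Igf2r at 0.930, 0.925 and 0.922, and Dhrs3 with Egfr at 0.839. Aldh1a2 went with Proser2, Pde3a and Gdf10 at 0.869, 0.843 and 0.832, and without AKR/J d12 with Htra1, Maf and Aqp1. Aldh1a3 went with Dio3 at 0.771, and Crabp1 with Nudt7, Mgarp and Myl9 at 0.902, 0.899 and 0.898. Between the 9 genes, Crabp2 and Aldh1a1 were the most opposed, with r of -0.82. All of these points share the libraries' day, and the values are descriptions.

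Splice junctions were listed for 6 of the 9 genes, and none for Aldh1a1, Aldh1a2 or Crabp1. Crabp2 had 1 junction, between bases 87859902 and 87860293 of chromosome 3, with reads that came to 14.2% to 26.3% of its gene count in the 25 libraries above 0. It was listed at 0 in AKR/J d12 replicate 1 and Cav1-null d12 replicate 3, whose gene counts were 4342 and 2714, and such a value may also mean that the filter of the table took reads away. The lowest and the highest share both came from AKR/J d17, where the gene held 204 and 293 reads. Rarb had 4 junctions, of which that between bases 5960830 and 6025924 of chromosome 14 was above 0 in all 27 libraries, at 2.74% to 28.8% of the gene count.

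The remaining genes of the pathway came from 6 lists of 87 genes in all. In the early phase 10 rose and 5 fell of 72 tested in AKR/J, 8 rose and 7 fell of 66 in C57BL/6J, and 5 rose and 18 fell of 69 in Cav1-null. In the late phase 9 rose and 13 fell of 73, 3 rose and 11 fell of 71, and 16 rose and 10 fell of 70, in the same order of strains. Of all genes tested, 2958 rose and 2800 fell early in AKR/J, 1356 and 1494 in C57BL/6J and 2318 and 2348 in Cav1-null, and late these counts were 2324 and 2085, 1484 and 1110, and 2937 and 2593. The median log2 fold changes of these genes were 0.13, 0.12 and -0.12 early and -0.20, -0.28 and 0.09 late, beside medians of all genes between -0.04 and 0.03. Rxrg, the partner receptor of striatal neurons, was called in all 6 comparisons. It rose early by 3.02 (SE 0.40, adjusted p = 0.0023) in AKR/J, 1.65 (SE 0.35, adjusted p = 0.0304) in C57BL/6J and 1.69 (SE 0.19, adjusted p = 0.000726) in Cav1-null on the log2 scale. Its CPM ran from 0.412 to 4.64 on d12 and from 11.7 to 34.1 on d17. Rara, the broadly expressed receptor, fell late in AKR/J by 0.60 (SE 0.15, adjusted p = 0.0243) and early in Cav1-null by 0.68 (SE 0.20, adjusted p = 0.0401).

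Upstream of the Aldh1a enzymes, Rdh10, which makes retinaldehyde, lay between 10.2 and 24.8 CPM and was not called between days. Lrat, which stores retinol as esters, rose late in C57BL/6J (1.64, SE 0.29, adjusted p = 0.0163) and Cav1-null (1.78, SE 0.43, adjusted p = 0.0072). Lrp2, an endocytic receptor for the plasma carrier, fell early in each strain, by 1.91 in AKR/J, by 0.95 in C57BL/6J and by 0.84 in the Cav1-null strain. The other clearance genes were close to absent: Cyp26a1 reached at most 1.94 CPM and Cyp26c1 at most 0.758 CPM. On d15, 7 of 10 receptors and 14 of 15 coregulators were lower in Cav1-null than in C57BL/6J, and 7 of 10 and 12 of 15 were lower in AKR/J than in C57BL/6J. The medians of these lists were -1.05 and -0.62 for Cav1-null and -0.51 and -0.51 for AKR/J, beside medians of all genes of 0.03 and 0.06. Over all genes 5310 were higher and 6311 lower of 19827 tested in Cav1-null, and 3696 were higher and 4393 lower of 19692 in AKR/J. The other lists are not broken out here for d15, and the part of tissue makeup in these counts was not tested.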

How the data were processed

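Poly-A RNA of single fetal brains was sequenced in 27 libraries. The authors checked reads with FastQC, trimmed them with cutadapt and fastp, and aligned them with STAR to GRCm39; the counting tool and its strand setting are not given in the sources used here. The deposited gene table holds raw read counts, and the deposited junction table holds counts of reads over splice junctions from a 2-pass alignment, which the authors filtered. Levels are CPM: reads scaled to 1000000 reads on genes (26363697 to 39759702 per library), scaled by TMM factors over all libraries, and per kb of GENCODE M39 exon where genes are compared. Each pair of groups (6 libraries) was fitted alone with edgeR 4.0.16 in R 4.3.3 (filterByExpr, TMM, quasi-likelihood test, Benjamini-Hochberg adjustment over all genes tested, threshold 0.05), and differences in change over 12 libraries with an interaction term. The scripts were tested on simulated data. Alternatives were other size factors, no filter, DESeq2 1.42.0, 1 model of all libraries, a replicate block and leaving out each library. Leaving out 3 libraries and the brain region list were added after seeing the data. The genes and the lists were chosen with earlier results of these data known. Beyond the 9 genes, the text names by rule the 3 genes nearest to each in Pearson r of log2(CPM + 1), among genes with a mean of at least 1 CPM; Rxrg, Rara, Rdh10, Lrat, Lrp2, Cyp26a1 and Cyp26c1 were picked from the lists after their values were seen. Some items are not reported here.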

Additional observations from a re-analysis of the deposited data

How the results depend on the processing

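Of 313 alternatives to the 25 calls of the 9 genes, 256 kept the call, 57 lost it and 0 changed direction. DESeq2, DESeq2-style size factors in edgeR and no filter on low counts lost none, library sizes alone lost 3, leaving out the libraries that stood apart 4, and the model of all 27 libraries 9. Library sizes alone moved the median of all genes by 0.44 in AKR/J early and by -0.40 between AKR/J and either other strain on d12, so values there are relative to that shift.

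The number of the 9 genes called moved by over 1.5 times as follows, and the cause was not tested. AKR/J early went from 5 to 3 without the libraries that stood apart, and AKR/J late from 1 to 3 without them, with no filter and with DESeq2. C57BL/6J early went from 2 to 4 with DESeq2. C57BL/6J late went from 1 to 3 with no filter and with DESeq2, and to 2 with library sizes alone and in the model of all libraries. Cav1-null late went from 1 to 2 with no filter and to 0 in the model of all libraries. AKR/J against C57BL/6J on d12 went from 1 to 3 with no filter and in the model of all libraries and to 0 without the libraries that stood apart, and on d15 from 1 to 3 with no filter, 2 with DESeq2 and 4 without those libraries. Cav1-null against C57BL/6J went from 6 to 1 on d15 in the model of all libraries, and from 0 to 1 on d17 with DESeq2. AKR/J against Cav1-null went from 1 to 2 on d12 with library sizes alone, no filter, DESeq2 and the model of all libraries, and to 0 without the libraries that stood apart. It went from 2 to 1 on d15 in the model of all libraries and to 4 without those libraries, and from 2 to 0 on d17 in the model of all libraries. Of the differences in change, AKR/J against C57BL/6J late went from 0 to 1 with DESeq2, Cav1-null against C57BL/6J late and AKR/J against Cav1-null late from 0 to 1 with no filter and with DESeq2, and AKR/J against Cav1-null early from 0 to 2 with no filter and to 1 with library sizes alone, DESeq2 and the model of all libraries.

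Without 1 library at a time the counts ran from 3 to 6 early and 1 to 3 late in AKR/J, 0 to 5 and 0 to 4 in C57BL/6J, and 2 to 5 and 1 to 2 in Cav1-null. On d12, d15 and d17 they ran from 0 to 2, 1 to 4 and 0 to 3 for AKR/J against C57BL/6J, 0 to 1, 5 to 6 and 0 to 2 for Cav1-null against C57BL/6J, and 0 to 3, 1 to 4 and 0 to 2 for AKR/J against Cav1-null. For the differences in change, early and late, they ran from 0 to 0 and 0 to 1 for AKR/J against C57BL/6J, 0 to 2 and 0 to 3 for Cav1-null against C57BL/6J, and 0 to 2 and 0 to 1 for AKR/J against Cav1-null.

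The replicate numbers did not pair the libraries: in 0 of the 18 pairs of groups that share a strain or a day were the correlations of all 3 same-numbered libraries over 0.1 (range -0.53 to 0.43). They were over it in 2 pairs that share neither, AKR/J d17 with C57BL/6J d15 and with Cav1-null d12. With a replicate block 7 of the 25 calls were lost, and the counts became 2 in AKR/J late, 0 in C57BL/6J early (where 0 of 19154 genes in the whole table were called), 3 in C57BL/6J late, 2 for AKR/J against C57BL/6J on d12 and on d15, and 3, 1 and 0 for AKR/J against Cav1-null on d12, d15 and d17.

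On d12 the counts ran from 8 to 328 reads for Aldh1a2 and from 10 to 171 reads for Aldh1a3, and the smallest change detectable at this depth was not tested.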
